A study of Homo sapiens with 9 samples.

Results

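Small Cajal body-specific RNAs (scaRNAs) were compared in the established human melanoma line WM983B after 24 h with 2.5 µM corin, 2.5 µM MS-275 or the vehicle DMSO, on 3 arrays per group and 9 in all. The genes were chosen by symbol, as those starting with SNORA, SNORD or SCARNA. Of the 14884 named genes, 23 carried a SCARNA symbol, 0 a SNORA symbol and 0 a SNORD symbol. Most probes were given no gene symbol, so these counts do not show that the array lacks SNORA or SNORD probes. The account therefore covers scaRNAs, the guide RNAs of the Cajal body, and nucleolar guide RNAs were not analysed here. MS-275, or entinostat, blocks class I histone deacetylases through a benzamide group. Corin joins a benzamide group of the same kind to a warhead directed at the demethylase LSD1, and the labels write it as corin2. All 3 groups were of the same line, no genetic change or other agent is named, and the results describe 1 line. The arrays were of the Affymetrix Human Gene 2.0 ST design, and the values are log2 signals that the authors made by RMA.

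scaRNAs are short noncoding RNAs that guide chemical modification of the spliceosomal small nuclear RNAs (snRNAs) in Cajal bodies, small structures of the nucleus. A box C/D scaRNA directs 2′-O-methylation of its target through the methyltransferase fibrillarin, and a box H/ACA scaRNA directs the change of uridine to pseudouridine through dyskerin. Some hold both kinds of domain in 1 RNA. Most are cut out of an intron of a host gene after splicing, while a few, among them SCARNA2 and SCARNA17, are transcribed from promoters of their own. By these families the 23 scaRNAs were 5 of the C/D kind (SCARNA2, SCARNA7, SCARNA9, SCARNA9L and SCARNA17), 4 mixed C/D and H/ACA (SCARNA5, SCARNA6, SCARNA10 and SCARNA12) and 14 of the H/ACA kind. Each had 1 probe set. Of 29 SCARNA symbols in the RefSeq gene table, 6 had no named probe here.

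A pair of start regions is shown because SCARNA5 and SCARNA17 had the largest differences between corin and vehicle. SCARNA5 and SCARNA6 lie within ATG16L1, a gene of autophagy. SCARNA17 begins at the same base as SNHG22, a noncoding RNA gene that holds it, so that the last 50 bases of the SNHG22 window are the first bases of SCARNA17. Sequences are from RefSeq (GRCh38.p14), from 250 bases before to 50 after the start. Both lie on the plus strand, ATG16L1 at chr2:233251423-233251722 and SNHG22 at chr18:49813773-49814072. Capitals mark matches on either strand to the GC box GGGCGG, the CCAAT box, the E-box CACGTG or the TATA element TATAAA.
ATG16L1: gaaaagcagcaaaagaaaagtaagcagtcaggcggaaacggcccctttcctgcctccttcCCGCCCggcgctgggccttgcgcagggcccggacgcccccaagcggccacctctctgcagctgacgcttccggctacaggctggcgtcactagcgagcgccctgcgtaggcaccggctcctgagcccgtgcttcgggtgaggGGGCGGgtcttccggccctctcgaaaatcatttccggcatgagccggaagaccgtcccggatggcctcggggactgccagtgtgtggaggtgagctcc
SNHG22: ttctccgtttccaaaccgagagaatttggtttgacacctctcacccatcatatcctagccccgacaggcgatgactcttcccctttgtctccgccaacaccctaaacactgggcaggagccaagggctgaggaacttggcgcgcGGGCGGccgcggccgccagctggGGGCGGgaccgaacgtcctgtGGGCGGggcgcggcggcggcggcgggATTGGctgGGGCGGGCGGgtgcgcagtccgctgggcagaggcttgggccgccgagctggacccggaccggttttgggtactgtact
Promoter windows were on hand for 24 of the 25 genes that hold a scaRNA within their bounds, with 28 windows in all, as some genes have several and these may overlap. GGGCGG was found in 25 of the 28, against 44.95% of 35116 windows of the same length. CCAAT was found in 11 (34.61% of all windows), CACGTG in 3 (7.26%) and TATAAA in 1 (11.53%). These are matches of letters, and binding was not measured.

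Within a group the arrays correlated at 0.989 to 0.994 (Pearson's r across genes, which are not independent replicates), and the number of arrays limits the precision. The median SD within a group was 0.105 log2 units over the scaRNAs and 0.134 over all genes. Of 8 melanocyte lineage markers 7 were measured, and all 7 lay above the median probe in every group, with group means of 5.59 to 9.74 in corin arrays, 7.61 to 10.50 in MS-275 arrays and 7.97 to 10.56 in vehicle arrays. All 7 were lower with corin and 3 with MS-275 than with vehicle by limma, and their part in the scaRNA differences was not tested. Of 5 keratinocyte markers measured, 1 lay above the median probe in each group. It was KRT14 with corin (4.22) and KRT10 with MS-275 (4.17) and vehicle (4.57). Of the fibroblast markers DCN and LUM were measured, LUM with means of 9.07 in corin, 9.66 in MS-275 and 9.08 in vehicle arrays, and of the immune markers CD14 and LYZ. By limma DCN, LUM and LYZ were higher with MS-275 than with vehicle, by 0.68, 0.59 and 0.78, and DCN was higher with corin by 0.28. KRT10 was lower than with vehicle, by 0.58 with corin and by 0.40 with MS-275. The part of these markers in the scaRNA differences was not tested. Other markers of these lists had no named probe and were not analysed here. In a bulk sample, fewer cells of a type and less RNA per cell cannot be told apart. Every difference is relative to the other transcripts on an array. The methods speak of independent experiments without tying single arrays to them, and p-values measure the scatter between these arrays.

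Signals depend on the probes as well as on the RNA, so levels are compared between groups for 1 scaRNA at a time. The group means of the 23 scaRNAs ran between 2.495 and 9.84. For 18 of them the mean over all arrays lay above the median of all probes, 4.07. The other 5, SCARNA1, SCARNA3, SCARNA14, SCARNA15 and SCARNA23, are all of the H/ACA kind and had means below it. No scaRNA shared its values with another on all 9 arrays: 0 pairs were identical, and the closest pair, SCARNA2 and SCARNA16, still differed by up to 0.31 on an array. Over all named genes, 4 genes in 2 groups had identical values.

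**Figure D1:**
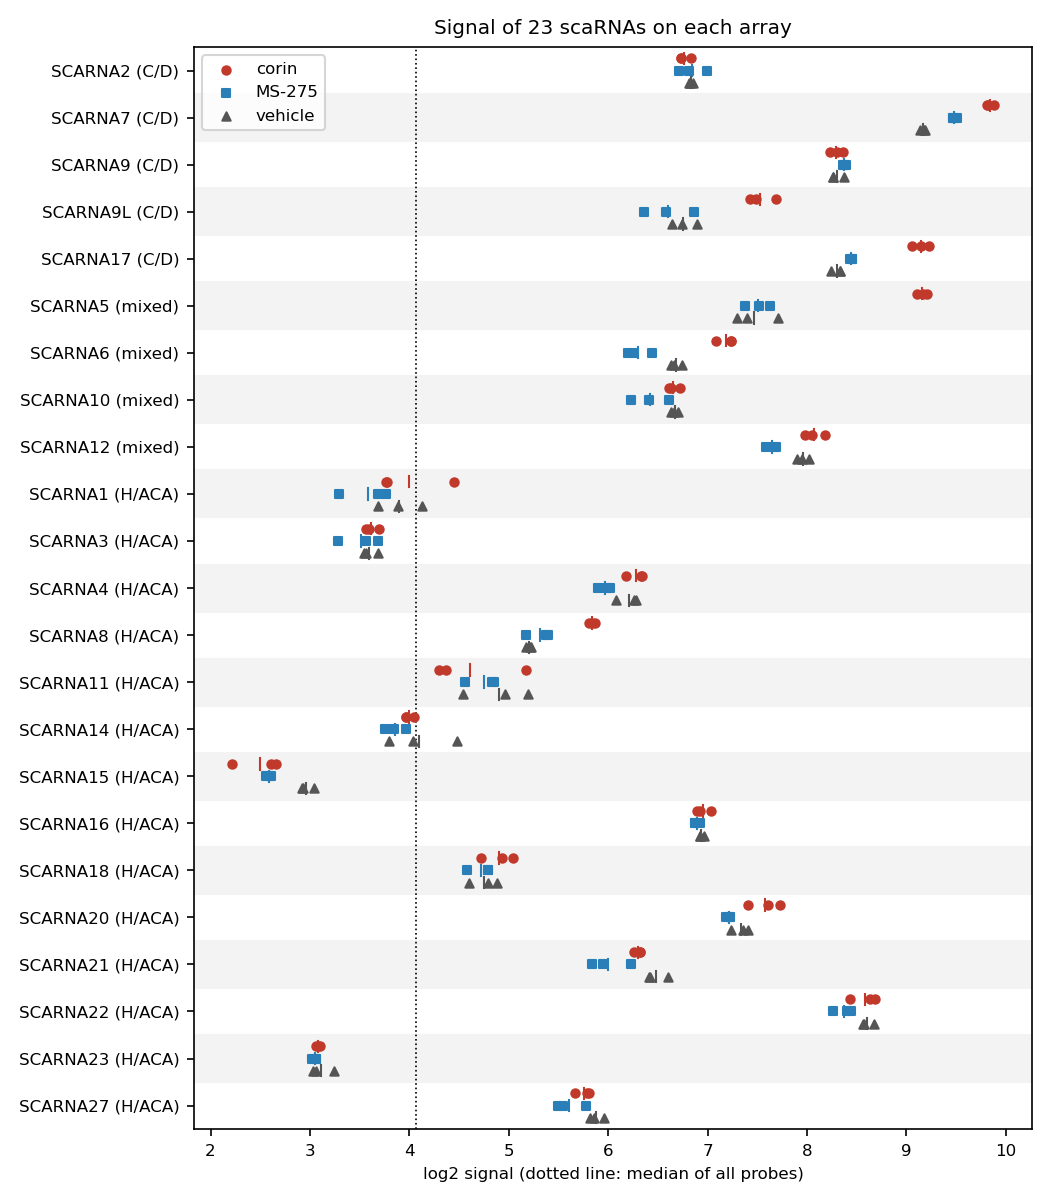
Log2 signal (x axis) of the 23 scaRNAs (rows, by box family) on each array, with corin as circles above MS-275 as squares and vehicle as triangles; short vertical lines are group means of 3 arrays and the dotted line is the median of all probes. SCARNA5 lay between 9.10 and 9.21 on the corin arrays, above every MS-275 and vehicle array.

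Corin was compared with vehicle to see what the dual inhibitor did to the scaRNAs. At a Benjamini-Hochberg adjusted p under 0.05 from limma over all 14884 genes, 7 of 23 scaRNAs were higher with corin than with vehicle and 1 was lower. Of all genes tested, 23.4% were higher and 26.8% lower by the same call, so the share of scaRNAs that rose was near the background and the share that fell was below it. The median difference was 0.02 over the scaRNAs and −0.04 over all genes, and 13 of 23 scaRNAs lay above 0, against 45.6% of all genes. Without corin array 3, 2 scaRNAs were lower, with SCARNA11 added. Those that rose were SCARNA5, SCARNA6, SCARNA7, SCARNA8, SCARNA9L, SCARNA17 and SCARNA20, and SCARNA15 fell. By family, 3 of the 5 C/D, 2 of the 4 mixed and 2 of the 14 H/ACA scaRNAs rose, and SCARNA15 is of the H/ACA kind. The median differences over all members of these families were 0.67, 0.31 and −0.003. The families were not tested against each other. They also differed in signal, with median scaRNA means over all arrays of 8.32, 7.31 and 5.12. The part of signal in these family counts was not tested, and recovery by RNA length in the column purification was not measured.

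SCARNA5 (U87), a mixed-domain guide for the U5 snRNA, changed the most. It measured 9.16, 9.10 and 9.21 on the corin arrays, against 7.40, 7.29 and 7.71 on the vehicle arrays. The corin arrays were tightly grouped and far above every vehicle array. The difference was 1.69 ± 0.11 (SE, log2), a 3.23-fold rise with a 95% interval of 1.44 to 1.94 (adjusted p = 1.558e-07 from limma), and SCARNA5 was the only scaRNA past a fold of 2, where 7.26% of all genes were higher and 7.61% lower by fold and p. SCARNA6 (U88), a second mixed guide for U5 from the same host gene, measured 7.08, 7.23 and 7.23 with corin, against 6.66, 6.63 and 6.74 with vehicle. Its corin arrays also lay above all vehicle arrays, by a smaller step of 0.50 ± 0.09 (SE; adjusted p = 0.0005694 from limma). The remaining mixed guides, SCARNA10 (U85, for U5) and SCARNA12 (U89), differed from vehicle by −0.02 and 0.11, and neither passed the test.

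Among the C/D scaRNAs, SCARNA17 (U91), which guides methylation of the U4 snRNA, measured 9.23, 9.15 and 9.06 with corin, against 8.24, 8.33 and 8.34 with vehicle. The groups did not overlap, and the rise was 0.84 ± 0.08 (SE, log2; 1.79-fold, adjusted p = 2.783e-06 from limma). SCARNA9L, a SCARNA9-like copy on the X chromosome within EIF1AX, measured 7.48, 7.68 and 7.43 with corin, against 6.64, 6.74 and 6.89 with vehicle. It rose by 0.78 ± 0.13 (SE), with no overlap, while SCARNA9, a guide for U2, differed by −0.0027 with a 95% interval of −0.17 to 0.17. SCARNA7 (U90), a guide for U1, measured 9.82, 9.88 and 9.81 with corin, against 9.19, 9.14 and 9.18 with vehicle. All corin arrays were higher, and the rise was 0.67 ± 0.07 (SE). SCARNA2, a U2 guide transcribed from its own promoter as SCARNA17 is, differed by −0.06 (95% interval −0.26 to 0.13) and did not pass the test.

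Of the H/ACA scaRNAs 2 rose and 1 fell. SCARNA8 (U92), a guide for U2, measured 5.80, 5.84 and 5.87 with corin, against 5.22, 5.21 and 5.17 with vehicle. The arrays of both groups were close together and apart from each other, and the rise was 0.64 ± 0.08 (SE). SCARNA20 (ACA66), a guide for the minor spliceosome's U12, measured 7.61, 7.41 and 7.73 with corin, against 7.40, 7.24 and 7.36 with vehicle. The lowest corin array (7.4054) was barely above the highest vehicle array (7.4033), and its rise of 0.25 ± 0.10 (SE; adjusted p = 0.04928 from limma) lost the call without any 1 of 8 arrays, all but corin array 2 (adjusted p up to 0.1636 over the alternatives tried). SCARNA15 (ACA45), a guide for U2 with a signal below the median probe, measured 2.66, 2.22 and 2.61 with corin, against 3.04, 2.92 and 2.93 with vehicle. It fell by 0.47 on the log2 scale, and its low signal leaves it out of a test restricted to genes at or above the median signal. The other 11 H/ACA scaRNAs differed from vehicle by −0.28 to 0.14 and did not pass, with 95% intervals between −0.77 and 0.52.

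**Figure D2:**
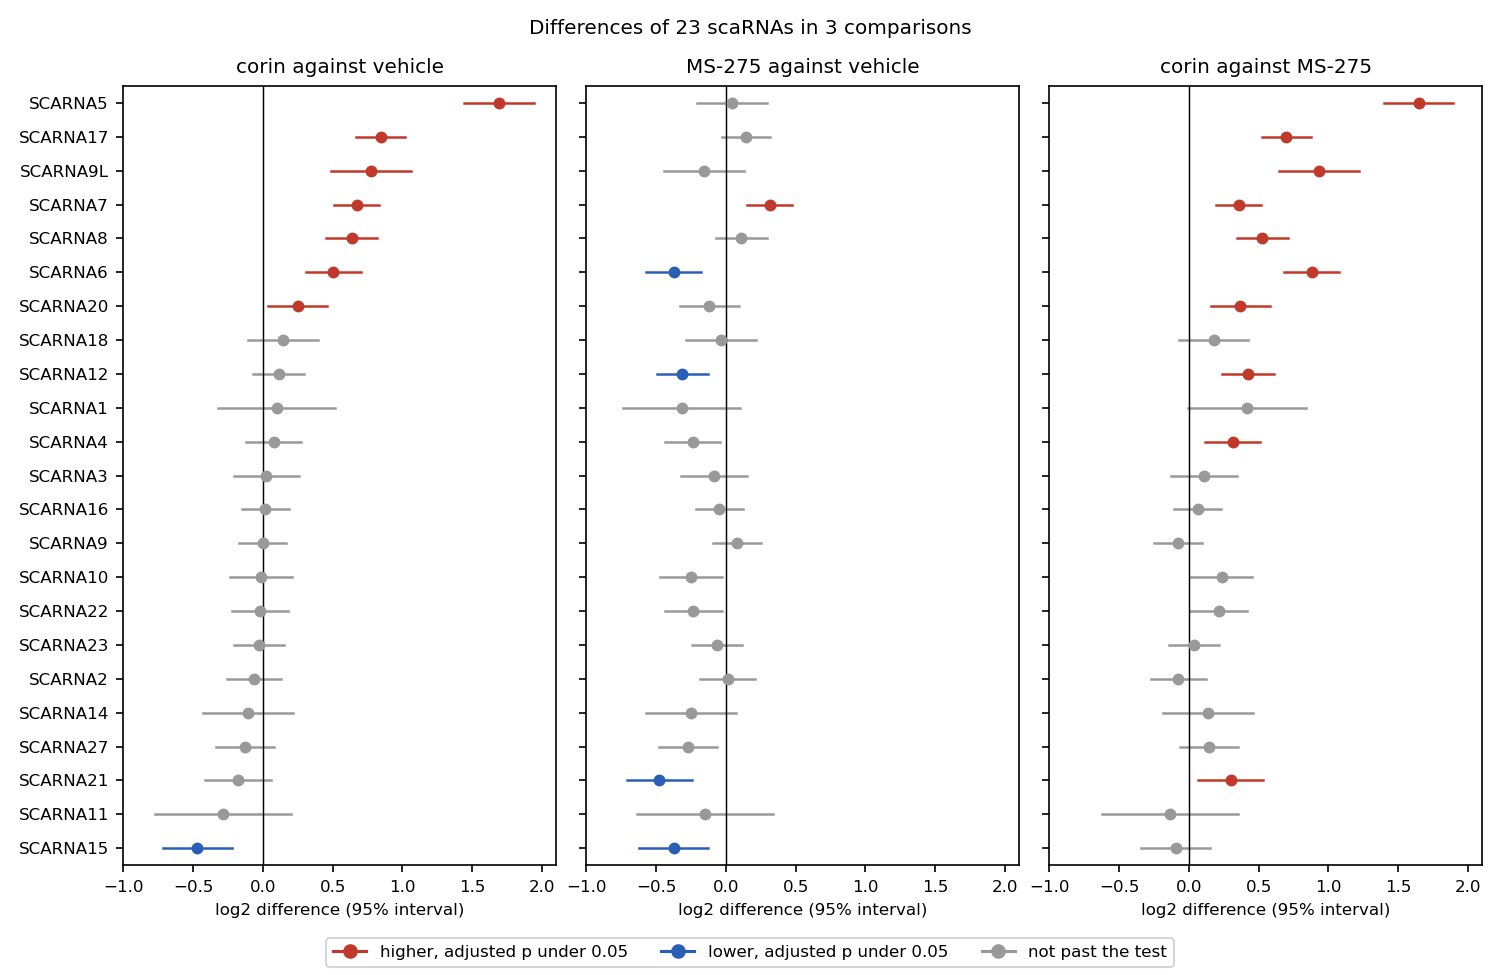
Log2 difference (x axis) with its 95% interval for the 23 scaRNAs (rows, in the order of the corin difference) in corin against vehicle, MS-275 against vehicle and corin against MS-275; red marks higher and blue lower at an adjusted p under 0.05 from limma, grey not past the test. The panels share arrays, so their points are not independent, and 7, 1 and 10 scaRNAs are red while 1, 4 and 0 are blue.

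MS-275 was set against the same vehicle arrays at the same dose and time, so the 2 vehicle comparisons share their controls. By the same call, 1 scaRNA was higher with MS-275 than with vehicle and 4 were lower, against 14.2% and 15.4% of all genes. The median difference was −0.15 over the scaRNAs and −0.03 over all genes, and 6 of 23 scaRNAs lay above 0, against 45.2% of all genes. Without MS-275 array 2, 2 scaRNAs were lower. By limma 0 scaRNAs passed a fold of 2 in either direction, against 3.03% of all genes higher and 0.39% lower by fold and p. At an unadjusted p under 0.05, whatever the fold, 1 was higher and 8 were lower, against 17.6% and 21.2% of all genes. SCARNA7 was the one that rose. It measured 9.51, 9.47 and 9.47 with MS-275, against 9.19, 9.14 and 9.18 with vehicle, a difference of 0.31 ± 0.07 (SE; adjusted p = 0.006594 from limma) with every MS-275 array above every vehicle array.

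The scaRNAs that fell with MS-275 were SCARNA6 and SCARNA12 of the mixed kind and SCARNA15 and SCARNA21 of the H/ACA kind. SCARNA6 measured 6.20, 6.26 and 6.45 with MS-275, against 6.66, 6.63 and 6.74 with vehicle, and fell by 0.38 on the log2 scale (adjusted p = 0.008548 from limma). SCARNA12 measured 7.67, 7.58 and 7.69, against 7.95, 7.90 and 8.02 with vehicle, and fell by 0.31 (adjusted p = 0.01487 from limma). SCARNA21 (ACA68), a guide for U12, measured 5.94, 5.84 and 6.23 with MS-275, against 6.42, 6.60 and 6.42 with vehicle. It fell by 0.48, and all MS-275 arrays lay below the vehicle arrays. SCARNA15 measured 2.60, 2.61 and 2.55, against 3.04, 2.92 and 2.93 with vehicle, and its fall of 0.37 lost the call without any 1 of these 6 arrays (adjusted p up to 0.08969). SCARNA5, so much higher with corin, measured 7.38, 7.63 and 7.52 with MS-275 and differed from vehicle by 0.04 (95% interval −0.20 to 0.29). SCARNA17 differed by 0.14 and SCARNA8 by 0.11, neither past the test.

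Corin and MS-275, which share the benzamide group while corin alone carries the LSD1 warhead, were compared directly at the same dose and time. By limma, 10 of 23 scaRNAs were higher and 0 lower with corin than with MS-275, against 17.4% of all genes higher and 20.8% lower. At an unadjusted p under 0.05, 12 were higher and 0 lower, against 20.6% and 24.4% of all genes, and the one-way model without moderation gave 9 and 0. The median difference was 0.23 over the scaRNAs and −0.03 over all genes, and 19 of 23 scaRNAs lay above 0, against 46.4% of all genes. By family, 3 of 5 C/D, 3 of 4 mixed and 4 of 14 H/ACA scaRNAs were higher, with median differences of 0.36, 0.65 and 0.16. The families differed in signal, as given above, and were not tested against each other. As each array enters for every scaRNA, these counts are not 23 independent results.

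SCARNA5 was again the largest of these, at 1.65 ± 0.11 (SE; 3.13-fold, 95% interval 1.40 to 1.90, adjusted p = 5.789e-07 from limma), and the only scaRNA past a fold of 2, where 2.41% of all genes were higher and 3.64% lower by fold and p. SCARNA9L measured 7.48, 7.68 and 7.43 with corin, against 6.58, 6.36 and 6.86 with MS-275, a difference of 0.93 ± 0.13 (SE). SCARNA6 was higher by 0.88 ± 0.09 (SE), and its corin arrays (7.08 to 7.23) lay above its MS-275 arrays (6.20 to 6.45), with the vehicle arrays between them. SCARNA17 was higher by 0.70 ± 0.08 (SE), with 9.06 to 9.23 on corin arrays and 8.43 to 8.46 on MS-275 arrays. SCARNA8 was higher by 0.53 ± 0.08 (SE) and SCARNA7 by 0.36 ± 0.07 (SE). SCARNA7 was the one scaRNA that passed the test as higher in all 3 comparisons. The MS-275 arrays of SCARNA17 also lay above its vehicle arrays (8.24 to 8.34), a difference of 0.14 that passed under quantile normalization and in no other setting tried (adjusted p = 0.04072 from limma, against 0.2055 as deposited).

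SCARNA12 measured 8.05, 8.18 and 7.98 with corin, against 7.67, 7.58 and 7.69 with MS-275, and was higher by 0.42 ± 0.08 (SE; adjusted p = 0.001731 from limma). Its corin arrays were near those of vehicle, from which they differed by 0.11 (95% interval −0.07 to 0.30). SCARNA20 was higher with corin than with MS-275 by 0.37 ± 0.10 (SE), SCARNA4 (ACA26, a guide for U2) by 0.32 ± 0.09 (SE) and SCARNA21 by 0.30 ± 0.11 (SE). The call for SCARNA21 (adjusted p = 0.04493 from limma) was lost without any 1 of 7 arrays, all but vehicle array 2 and MS-275 array 3, with adjusted p up to 0.1729, and that for SCARNA4 was lost without MS-275 array 1 (0.0619). The 13 scaRNAs that did not pass differed between the compounds by −0.14 to 0.42, with 95% intervals between −0.62 and 0.84. Among these, SCARNA16 differed by 0.06 (−0.11 to 0.23), SCARNA9 by −0.08 (−0.25 to 0.09) and SCARNA2 by −0.07 (−0.27 to 0.12). The wider of these intervals belonged to SCARNA1 and SCARNA11, whose arrays spread most within groups.

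The other 12 of the 23 scaRNAs passed no comparison, though SCARNA10, SCARNA11, SCARNA22 and SCARNA27 did under some alternatives. SCARNA22 (ACA11), an H/ACA scaRNA with no known target, measured 8.44, 8.63 and 8.68 on corin arrays, 8.27, 8.40 and 8.45 on MS-275 arrays, and 8.57, 8.57 and 8.67 on vehicle arrays. Its MS-275 arrays lay below its vehicle arrays, at −0.23 (95% interval −0.44 to −0.03), which did not pass after adjustment over all genes (adjusted p = 0.08207 from limma). SCARNA10 and SCARNA27 were alike in this, at −0.25 and −0.27 against vehicle with MS-275 (adjusted p = 0.0866 and 0.05079 from limma). SCARNA11 (ACA57), a guide for U5, spread the most, with 4.37, 4.30 and 5.17 on corin arrays, 4.85, 4.56 and 4.84 on MS-275 arrays, and 4.96, 5.19 and 4.54 on vehicle arrays. SCARNA1 (ACA35), a guide for U2, had 1 high corin array, at 3.76, 4.45 and 3.78, beside 3.30, 3.76 and 3.68 with MS-275 and 4.12, 3.88 and 3.69 with vehicle. SCARNA16 (ACA47) and SCARNA18 (U109), guides for U1, and SCARNA23 (ACA12), a guide for U6, overlapped in all comparisons.

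The host genes were set beside the scaRNAs. A gene of the RefSeq table held 22 of the 23 within its bounds, SCARNA2 being the exception. For 13 scaRNAs a host had a named probe and so a value, 12 hosts in all. The gene table gives no strand, and the array cannot tell a mature scaRNA from unspliced host RNA that spans the same bases, a distinction that was not tested. With corin, 3 of the 13 scaRNAs had a host that was higher than vehicle and 8 a host that was lower, where 23.4% of all genes were higher and 26.8% lower. Where both passed the test they ran the same way in 4 pairs (3 higher, 1 lower). The lower pair was SCARNA15 with FSD2, which may not be its host, as SNHG21 on the other strand also holds SCARNA15. This pair is kept in what follows. Across the 13 pairs the differences correlated at r = 0.63 (Spearman's rho 0.70) with corin, 0.47 (0.31) with MS-275 and 0.57 (0.48) between the compounds, a description over points that share arrays and, for SCARNA5 and SCARNA6, a host. The 95% intervals of scaRNA and host did not meet in 6 of 13 pairs with corin, in 2 of 13 with MS-275 and in 6 of 13 between the compounds. Overlap of intervals does not show equal change, and scaRNA and host were not tested against each other.

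ATG16L1 measured 6.72, 6.79 and 6.90 with corin, against 6.20, 6.03 and 6.25 with vehicle. It rose by 0.64 (95% interval 0.43 to 0.86, adjusted p = 0.0001492 from limma), an interval that overlapped that of SCARNA6 (0.31 to 0.70) and lay clear of that of SCARNA5 (1.44 to 1.94). With MS-275, ATG16L1 differed from vehicle by −0.08 and did not pass, while SCARNA6 fell by 0.38. The intervals of SCARNA5 and SCARNA6, which share this host, did not meet with corin. KPNA4, an importin of nuclear import that hosts SCARNA7, measured 9.49, 9.46 and 9.18 with corin, against 8.19, 8.41 and 8.37 with vehicle, and rose by 1.05 (0.80 to 1.31) beside the 0.67 of SCARNA7. With MS-275, KPNA4 differed by 0.18 and did not pass, and SCARNA7 rose by 0.31, with overlapping intervals. Between the compounds both were higher with corin, but the intervals did not meet (0.20 to 0.52 for SCARNA7 and 0.62 to 1.13 for KPNA4).

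In 7 of the 13 pairs the host fell with corin while the scaRNA did not pass the test. CEP295, a centriole protein gene and host of SCARNA9, measured 5.18, 5.19 and 5.00 with corin, against 6.76, 6.89 and 6.86 with vehicle, and fell by 1.72 on the log2 scale. SCARNA9 itself measured 8.36, 8.30 and 8.23 with corin, against 8.26, 8.38 and 8.26 with vehicle. The scaRNA arrays overlapped while the host arrays were far apart. NSD2, a histone H3 lysine methyltransferase gene that hosts SCARNA22 (ACA11), measured 5.24, 5.22 and 5.26 with corin, against 6.86, 6.72 and 6.79 with vehicle. It fell by 1.55, and SCARNA22 differed by −0.02 (95% interval −0.22 to 0.18). CHD3, a chromatin remodelling gene of the NuRD complex, fell by 1.77 beside the −0.18 of SCARNA21, and PHB2, a prohibitin gene of the mitochondrion, fell by 1.03 beside the 0.11 of SCARNA12. Between the compounds these last pairs ran in opposite directions, with SCARNA21 at 0.30 and CHD3 at −1.02, and SCARNA12 at 0.42 and PHB2 at −0.45, all past the test.

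**Figure D3:**
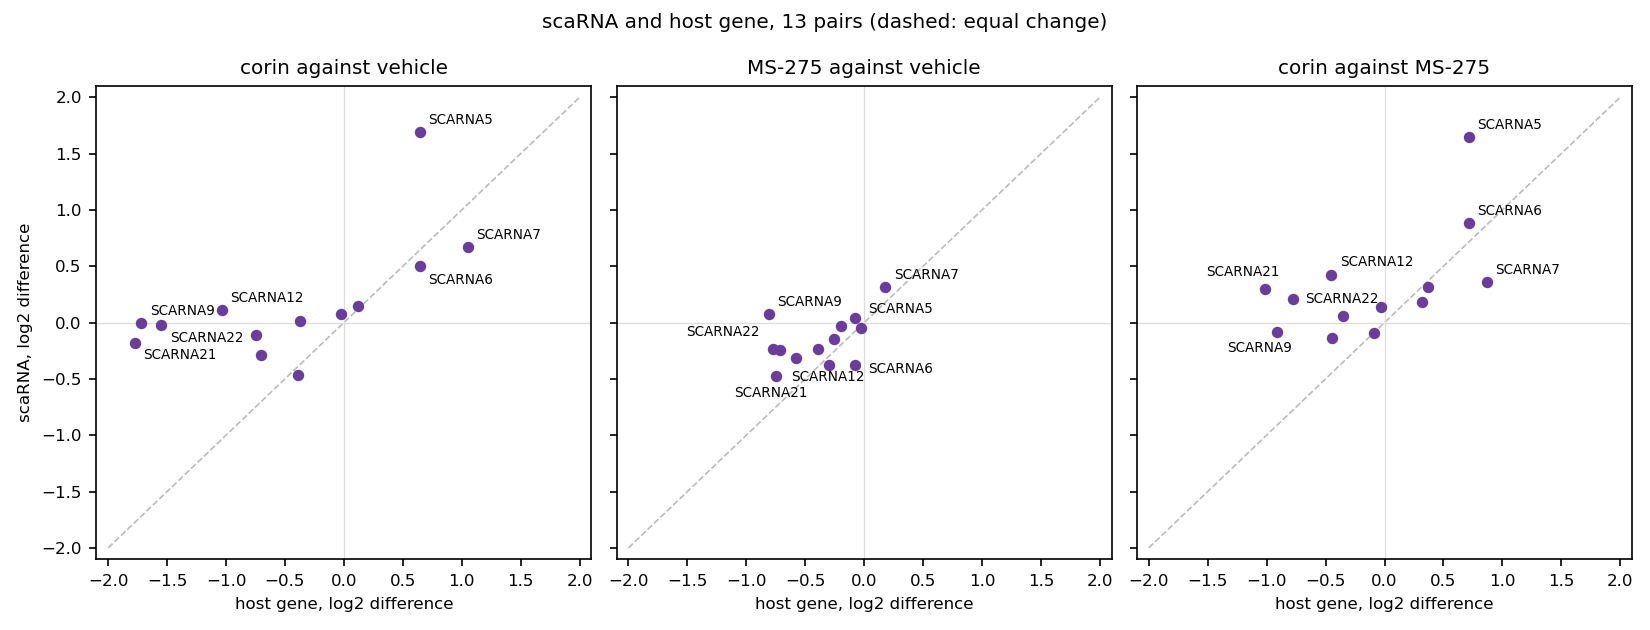
Log2 difference of each scaRNA (y axis) against that of its host gene (x axis) for 13 pairs in the 3 comparisons, with a dashed line where both would be equal. With corin against vehicle the hosts run from −1.77 to 1.05 while all but SCARNA5 of the scaRNAs stay between −0.47 and 0.67.

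**Figure D4:**
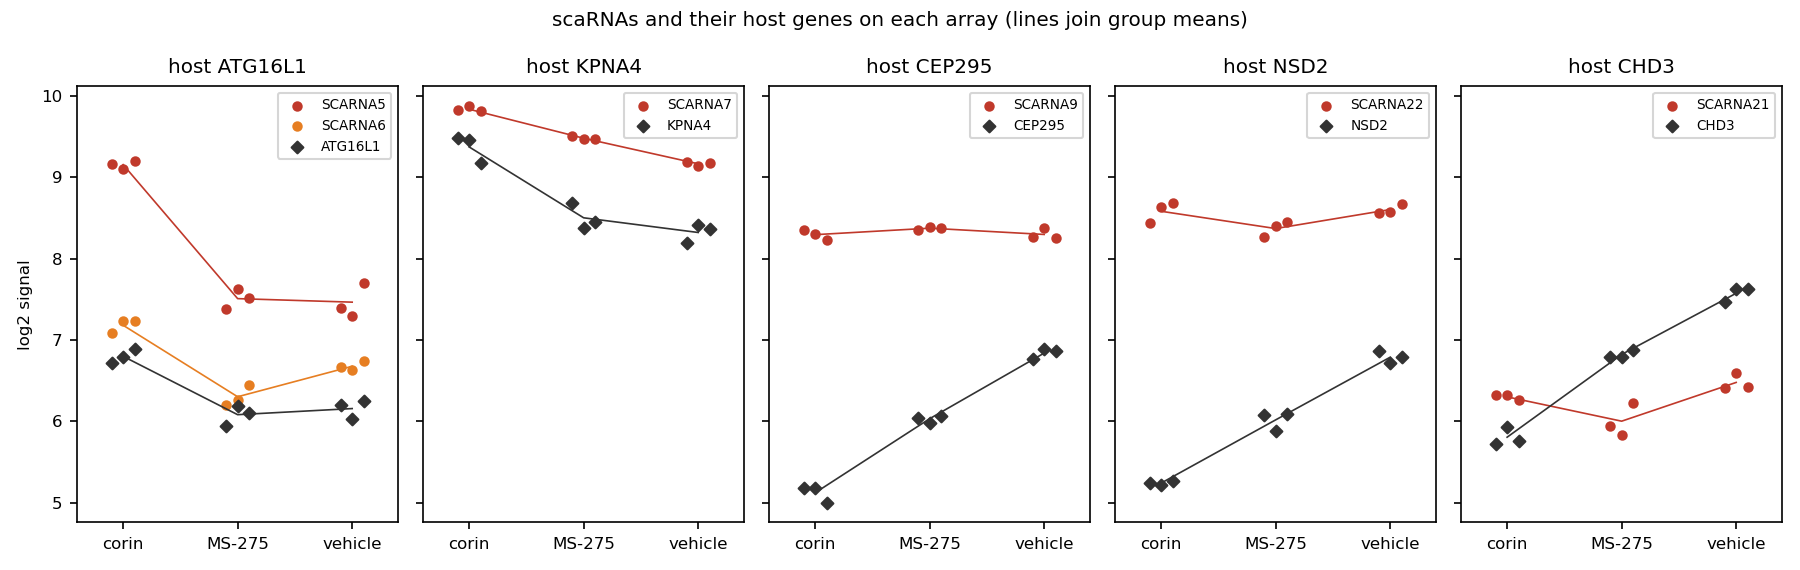
Log2 signal (y axis) of 5 host genes (diamonds) and their scaRNAs (circles) on each corin, MS-275 and vehicle array, with lines joining the group means. CEP295, NSD2 and CHD3 are lowest with corin and highest with vehicle, while the group means of SCARNA9 lie between 8.30 and 8.38 and those of SCARNA22 between 8.37 and 8.61.

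With MS-275, 7 of the 13 scaRNAs had a host that fell by limma, against 15.4% of all genes. CEP295 fell by 0.81 and NSD2 by 0.77, with SCARNA9 at 0.08 and SCARNA22 at −0.23, and these were the 2 pairs whose intervals did not meet. CHD3 fell by 0.75 beside the fall of 0.48 of SCARNA21, and PHB2 by 0.58 beside the fall of 0.31 of SCARNA12, with overlapping intervals in both. TIPIN, a replication fork gene and host of SCARNA14, fell by 0.75 with corin and by 0.72 with MS-275, and SCARNA14 differed by −0.11 and −0.25 without passing the test. CHD4, taken as the host of SCARNA11, fell by 0.70 with corin and by 0.25 with MS-275. The MS-275 call (adjusted p = 0.04646 from limma) was lost under 3 settings and without any 1 of 7 arrays, with adjusted p up to 0.1395. SCARNA11 also lies within CHD4-AS1, a gene on the other strand. KHDC4 and TMEM167A, which host SCARNA4 and SCARNA18, differed from vehicle by −0.03 and 0.12 with corin and did not pass, nor did their scaRNAs. With MS-275 KHDC4 fell by 0.39, a call that was lost without vehicle array 3 or MS-275 array 1. SCARNA16 lies within SNHG20 and SEC14L1, both on the plus strand, and only SNHG20 had a value. SNHG20, taken as the host, fell by 0.37 with corin, and SCARNA16 differed by 0.02. Without corin array 3 the SNHG20 difference was −0.23 and lost the call (adjusted p = 0.07002 from limma), as it did without vehicle array 1 (0.08279). SCARNA15 lies within the bounds of FSD2 and of SNHG21, genes on opposite strands, so at most 1 of them can be its host. Only FSD2 had a value, of 3.83 ± 0.14 with corin and 4.22 ± 0.13 with vehicle (SD, n = 3 arrays each), near the median probe of 4.07. FSD2 fell by 0.39 beside the 0.47 of SCARNA15, and it may not be the host.

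The genes that make and hold scaRNA particles were counted from lists of the pathway. Of 8 core proteins 6 were measured, and 4 fell with corin and 1 with MS-275, against 26.8% and 15.4% of all genes. NHP2 and GAR1, subunits of the H/ACA particle, fell with corin by 0.84 and 0.50, NOP10 of the same particle by 0.45, and fibrillarin (FBL) by 0.22, a call that was lost without any 1 of 8 arrays. NOP58 and SNU13 differed from vehicle by 0.19 and 0.10 with corin and did not pass. Between the compounds these 2 were higher with corin and 2 core proteins were lower, against 17.4% and 20.8% of all genes. For SNU13 the arrays of the 2 compounds overlapped (adjusted p = 0.04019 from limma). Of 14 assembly and trafficking factors 12 were measured, of which 3 rose and 4 fell with corin, and 1 rose and 5 fell with MS-275. Over all genes these shares were 23.4% and 26.8% with corin and 14.2% and 15.4% with MS-275, so the corin counts were near the background. The 3 that rose with corin were RPAP3, NUFIP1 and SHQ1, by 0.93, 0.73 and 0.45. The 4 that fell with corin were NAF1, TCOF1, RUVBL2 and PHAX, by 0.50, 0.49, 0.48 and 0.37. Between the compounds 3 of the 12 were higher with corin, against 17.4% of all genes. Coilin (COIL), the scaffold of the Cajal body, measured 6.29 ± 0.23 on corin arrays, 6.75 ± 0.13 on MS-275 arrays and 7.41 ± 0.05 on vehicle arrays (SD, n = 3 arrays each), and fell by 1.12 with corin and by 0.66 with MS-275. GEMIN2 was the only other of 4 Cajal body genes measured and did not pass.

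All 6 maturation and decay factors were measured, and 1 rose and 4 fell with corin, and 1 rose and 3 fell with MS-275. Of all genes, 23.4% rose and 26.8% fell with corin, and 14.2% rose and 15.4% fell with MS-275. DIS3, an exosome nuclease, rose by 1.24 with corin and by 0.43 with MS-275. EXOSC10, the nuclear exosome nuclease that trims small RNA precursors, fell by 1.26 with corin and by 0.53 with MS-275. PARN, which trims the 3′ tails of H/ACA RNAs, fell by 0.60 with corin and by 0.43 with MS-275. Between the compounds PARN differed by −0.17 and did not pass. DBR1 fell by 0.47 with corin and by 0.40 with MS-275. Of the 12 noncoding genes measured that host small guide RNAs, among them SNHG20, 7 rose and 3 fell with corin, against 2 that fell with MS-275, and 8 were higher and 3 lower with corin than with MS-275. Between the compounds 17.4% of all genes were higher and 20.8% lower, and the counts that fell against vehicle were near the background. EPB41L4A-AS1 rose by 1.03, SNHG15 by 0.99, ZFAS1 by 0.94 and GAS5 by 0.53 with corin, and SNHG18 fell by 1.32. Of 12 genes on a list for RNA polymerase I transcription only RRN3 and MYC had a named probe. RRN3 rose by 0.51 and MYC fell by 1.39 with corin. With MS-275 RRN3 differed by −0.24 and did not pass. MYC fell by 0.26 with MS-275, a call that was lost under 3 settings and without any 1 of 6 arrays. The part of these proteins in the scaRNA differences was not tested.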

How the data were processed

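Total RNA of each culture condition (Qiagen column purification) was measured on 9 arrays. Per the methods, the authors used RMA and the Partek Genomics Suite, and the deposited values are log2 signals of 53617 probes on each array. The processing notes of the submitters give hg19 as the build. These values were used as they stand, with dim probes kept. A gene symbol was given by the probe table to 16098 probes, which stand for 14884 genes, each taken by the probe of highest mean.

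Differences were fitted by limma 3.58.1 under R 4.3.3 (lmFit and eBayes on all 9 arrays, prior degrees of freedom 5.067), with Benjamini-Hochberg adjustment over all named genes and a 2-sided test at 0.05. The fit was tested on simulated data. Box families and guided targets are textbook background, assigned after the values were on hand. Hosts were the shortest genes of the RefSeq table (GRCh38.p14, used for names and bounds only) that hold a scaRNA and have a named probe. The rule planned for hosts asked for the same strand, which the table does not give. The scaRNAs with the largest change each way were to be named, and all 23 are described. Other genes were drawn from the lists, those with values chosen after these were seen. The genes and lists were chosen with earlier results of these data known. The alternatives were a replicate block, fits of the compared groups only, a one-way model, a fold of 2, other eBayes settings, a filter on dim genes, probe means, other scaling, identical copies counted once, all probes adjusted together, and each array left out. No slide or scan batch is given in the sources used here. The plots were made by matplotlib 3.10.9 under Python 3.11.15.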

Additional observations from a re-analysis of the deposited data

How the results depend on the processing

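With a fold of at least 2 beside the adjusted p, the counts from limma became 1 higher and 0 lower in corin against vehicle, 0 and 0 in MS-275 against vehicle, and 1 and 0 in corin against MS-275. Among genes at or above the median signal 0 scaRNAs were lower in corin against vehicle, because SCARNA15 was not tested there, and with quantile normalization 2 were higher in MS-275 against vehicle, with SCARNA17 added. With 1 array left out, 6 to 7 were higher and 1 to 2 lower in corin against vehicle (2 without corin replicate 3), 1 to 1 higher and 2 to 5 lower in MS-275 against vehicle (2 without MS-275 replicate 2, 5 without MS-275 replicate 3 or corin replicate 3), and 8 to 11 higher and 0 to 0 lower in corin against MS-275. Deviations from the group means correlated at −0.06 to 0.02 between arrays of the same replicate number and −0.04 to 0.07 between different numbers. These values do not settle whether arrays of 1 number came from the same experiment. With the replicate block 6 scaRNAs were higher and 1 lower in corin against vehicle, 1 and 4 in MS-275 against vehicle, and 9 and 0 in corin against MS-275.

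The scaRNA calls lost most often were SCARNA20 in corin against vehicle (lost in 5 settings and without any 1 of 8 arrays), SCARNA21 in corin against MS-275 (5 and 7) and SCARNA15 in MS-275 against vehicle (2 and 6). SCARNA12 in MS-275 against vehicle was lost without either of 2 arrays, and SCARNA4 in corin against MS-275 without 1. Calls of other genes lost in some settings or without some arrays were those of fibrillarin (FBL), FSD2 and SNHG20 in corin against vehicle, CHD4, KHDC4 and MYC in MS-275 against vehicle, and KHDC4, SNHG20 and TMEM167A in corin against MS-275. Calls of scaRNAs were gained in MS-275 against vehicle by SCARNA27 (3 settings and without either of 2 arrays), SCARNA4 (1 and 1), SCARNA10 (without 1 array) and SCARNA17 and SCARNA22 (1 setting each), in corin against MS-275 by SCARNA22 (1 and 1) and SCARNA10 (without 1 array), and in corin against vehicle by SCARNA11 (without 1 array), and FSD2 gained one in MS-275 against vehicle without 1 array. The cause was not tested. Other signs that turned belong to values near 0 that passed no test. With quantile normalization they were 0.0425 for SCARNA10, 0.0035 for SCARNA2, 0.0275 for SCARNA9 and 0.0282 for KHDC4 in corin against vehicle, and 0.0152 for SCARNA16 and 0.0637 for SNHG20 in MS-275 against vehicle. With arrays centred on the median they were −0.0242 for SCARNA16 and −0.016 for SCARNA3 in corin against vehicle, and −0.0036 for SCARNA2 in MS-275 against vehicle. With 1 array left out the ranges in corin against vehicle were −0.1065 to 0.0294 for KHDC4, −0.1281 to 0.2142 for SCARNA1, −0.0496 to 0.0053 for SCARNA10, −0.2647 to 0.081 for SCARNA14, −0.0283 to 0.0447 for SCARNA16, −0.0715 to 0.053 for SCARNA22, −0.0681 to 0.0389 for SCARNA23, −0.0146 to 0.0672 for SCARNA3 and −0.0337 to 0.0354 for SCARNA9. In MS-275 against vehicle they were −0.1148 to 0.0369 for SCARNA18, −0.0655 to 0.0766 for SCARNA2, −0.1044 to 0.0026 for SCARNA23, −0.1715 to 0.0276 for SCARNA3, −0.0427 to 0.163 for SCARNA5 and −0.067 to 0.0279 for SNHG20. In corin against MS-275 they were −0.1992 to 0.012 for FSD2, −0.4131 to 0.0209 for SCARNA11, −0.1782 to 0.0438 for SCARNA15, −0.1396 to 0.0025 for SCARNA2, −0.0042 to 0.1949 for SCARNA3 and −0.0877 to 0.0213 for TIPIN. A signal below the median probe limits what can be read from SCARNA1, SCARNA3, SCARNA14, SCARNA15 and SCARNA23.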

Other observations

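Exact values recurred across arrays for some scaRNAs. The same log2 value, to every digit deposited, stood on more than 1 of the 9 arrays for 7 of the 23 scaRNAs (30.43%), against 691 of the 14884 named genes (4.64%). SCARNA23 had the value 3.0636 on 4 arrays, of all 3 groups. SCARNA14 (3.9652), SCARNA16 (6.9238), SCARNA18 (4.7923) and SCARNA3 (3.5648) each had 1 value on 3 arrays, and for all 4 these included arrays of different groups. SCARNA1 and SCARNA7 each had 1 value on 2 arrays. For SCARNA1 these were corin array 1 and MS-275 array 2. For SCARNA7 they were MS-275 arrays 2 and 3 (9.4702), 2 of the 3 arrays behind its rise with MS-275. Of these 7, SCARNA7 alone passed a comparison. The source of the repeats was not tested.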
